A study of Homo sapiens with 4 samples.

Results

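Zinc finger genes named ZNF and a number are gathered in clusters along human chromosome 19, and their transcript levels are described here in 2 breast cancer cell lines with and without depletion of QPRT. The members were chosen by their symbol (ZNF, a number and at most 1 letter), a protein-coding annotation on chromosome 19 and a mean of at least 1 FPKM over the 4 libraries, so their overall level was selected on and is no finding. FPKM is the number of fragments of a gene scaled by its transcript length and by the fragments of the library. Of 247 such genes listed on chromosome 19, 213 passed and 34 did not, among 50626 genes of the table and 14321 genes with a mean of at least 1 FPKM, which are called the genes tested below. The libraries were BT-20 with control shRNA, BT-20 with QPRT shRNA, MDA-MB-468 (named MB-468 in the sample titles) with control shRNA and MDA-MB-468 with QPRT shRNA, 1 library each. Both are widely used human cell lines derived from triple-negative breast tumours; the hairpins were carried by a lentiviral vector in cells kept under puromycin selection, so that the control cells had also been transduced and selected. QPRT encodes quinolinate phosphoribosyltransferase, an enzyme of NAD synthesis from tryptophan. With 1 library per group, a difference between shRNAs within a line has no replicate check.

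Most proteins of this family join a KRAB domain at the amino end to a row of C2H2 zinc fingers. The fingers bind DNA, often within transposable elements, and the KRAB domain recruits TRIM28, which brings the histone methyltransferase SETDB1 and heterochromatin proteins to the site. The family expanded by tandem duplication, so neighbouring genes are often close relatives.

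The libraries held between 10322005 and 10945937 fragments, as recovered from the steps of the FPKM values. QPRT was at 249 FPKM in the control and 40.5 FPKM in the QPRT shRNA library of BT-20, and at 117 against 18.3 FPKM for MDA-MB-468. The epithelial markers KRT8, KRT18, KRT19, EPCAM and CDH1 and the receptor gene EGFR were above 76 FPKM in every library, the progesterone receptor gene PGR was listed at 0 in every library, and the estrogen receptor gene ESR1 was between 1.05 and 5.76 FPKM. A list of intestinal, gastric and plasma cell genes moved with the shRNA: 10 of 10 listed were lower with QPRT shRNA in both lines and none was at 0 in any library. Summed, they made 80.7 FPKM in the control and 32.2 FPKM in the QPRT shRNA library of BT-20, and 181 against 31.9 FPKM for MDA-MB-468; the part of this in the shRNA comparisons below was not tested.

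Members were expressed at low to moderate levels. Their median FPKM was 4.8 and 5.51 in the BT-20 libraries with control and QPRT shRNA, and 7.61 and 8.37 in those of MDA-MB-468, and 66 of the 213 reached a mean of 10 FPKM. The most abundant was ZNF146, a protein of fingers without a KRAB domain, at 54.2, 62.2, 97.2 and 123 FPKM in BT-20 control, BT-20 QPRT shRNA, MDA-MB-468 control and MDA-MB-468 QPRT shRNA. ZNF787 followed at 67.0, 58.8, 76.0 and 115 FPKM in the same order of libraries. The next were ZNF320, ZNF875, ZNF580, ZNF428, ZNF83, ZNF444, ZNF544 and ZNF865, with means between 35.7 and 55.8 FPKM. At the threshold, the members just inside were ZNF490, ZNF223 and ZNF730 with means of 1.05, 1.07 and 1.12 FPKM, and the genes just outside were ZNF66, ZNF540 and ZNF781 with 0.968, 0.944 and 0.937 FPKM.

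Translated coding sequences gave a KRAB A box for 183 members and none for 30. The first group had a median of 13 fingers, a median transcript GC content of 45.7% and a median level of 6.66 FPKM. The 30 members without the box had 9 fingers, 61.9% GC and 12.7 FPKM. ZNF91, which binds SVA retrotransposons, had the most fingers, 31, and 1 member, ZNF738, had no match to the finger pattern. Of the 213 members, 152 overlap another annotated gene, and whether the counting used strand is not given in the sources used here.

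More members were higher in MDA-MB-468 than in BT-20. The line difference was tested with limma on log2(FPKM + 1) with the shRNA as a second term, so the libraries of a line that differ in shRNA stand in for its replicates. At an adjusted p under 0.05, 81 members (38.0%) were higher in MDA-MB-468 and 24 (11.3%) were higher in BT-20, against 30.7% and 24.4% of all genes tested. The median difference was 0.35 on the log2 scale for members, 0.10 for all genes tested, 0.05 for 744 other protein-coding genes of chromosome 19 and -0.07 for 217 ZNF genes on other chromosomes, of which 45 were higher in MDA-MB-468 and 42 in BT-20. At 2-fold, 41 members were higher in MDA-MB-468 and 6 in BT-20, where 16.9% and 13.2% of all genes tested were. Both MDA-MB-468 libraries lay above both BT-20 libraries for 120 members (56.3%) and below them for 39 (18.3%), against 42.8% and 34.7% of all genes tested. The fit has 1 residual degree of freedom and takes its spread wholly from the trend over all genes, which is why single p-values are very small. Without a filter on low values over the table no member was called (86 had an unadjusted p under 0.05).

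The difference was not spread evenly along the chromosome. At the end of the long arm, 20 of 21 consecutive members from ZNF419 to ZNF329 (GRCh38, chromosome 19, 57487711 to 58155110, 667 kb) were at least 2-fold higher in MDA-MB-468, each with a limma adjusted p under 0.05. The boundaries were set on these values, as the longest row of members at 2-fold with 1 exception, so the row is a description with no test; with no exception allowed it held 12 members, ZNF419 to ZNF552. The median of the 21 genes was 2.01 and 2.05 FPKM in the BT-20 libraries with control and QPRT shRNA, against 11.4 and 9.33 FPKM in those of MDA-MB-468. The median log2 difference was 1.73, and 20 genes reached 2-fold in the control libraries alone and 20 in the QPRT shRNA libraries alone. These are the same values that set the row, so they are no separate check of it.

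Within the row, ZNF419 was at 4.49, 3.77, 14.4 and 14.3 FPKM in BT-20 control, BT-20 QPRT shRNA, MDA-MB-468 control and MDA-MB-468 QPRT shRNA. ZNF134, which has no KRAB box, was at 5.51, 6.53, 16.8 and 20.6 FPKM. ZNF417 was at 2.08, 1.87, 16.5 and 14.5 FPKM. In each of these genes both MDA-MB-468 libraries were far above both BT-20 libraries, which the rule of the row selects for. The libraries of a line lay close together. ZNF211 had a log2 difference of 2.22 ± 0.27 (SE, n = 4 libraries, limma adjusted p = 1.57e-15), ZNF776 of 2.15 and ZNF587 of 1.44. The exception was ZNF587B, at 1.55, 2.51, 3.46 and 3.43 FPKM. ZNF587B, ZNF587, ZNF417 and ZNF814 are close relatives or overlapping loci, and how the counting divided shared reads among them is not given in the sources used here.

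By its rule the members just before and just after the row fall below 2-fold, so a step at either end was selected on. ZNF329, the last gene of the row, was at 5.51, 4.68, 17.6 and 24.2 FPKM, while the next member, ZNF274, which brings SETDB1 to the 3′ ends of other zinc finger genes, was at 35.3, 36.4, 28.9 and 36.7 FPKM. ZNF274 did not pass the test (log2 difference -0.13 ± 0.22 SE, n = 4 libraries, limma adjusted p = 0.623). Of the 9 members from ZNF274 to the end of the chromosome, 1 reached 2-fold, ZNF837, with log2 differences between -0.21 and 1.75. Of the 10 members before the row, ZNF264 to ZNF772, none reached 2-fold and the differences ran from -0.21 to 0.97. Other genes inside the row did not all share the direction: ZSCAN18 was at 6.27, 4.96, 24.4 and 22.9 FPKM and ZSCAN1 at 0, 0, 5.02 and 6.54 FPKM, whereas ZIK1 was higher in BT-20 at 1.64, 2.32, 0.408 and 0.289 FPKM.

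**Figure D1:**
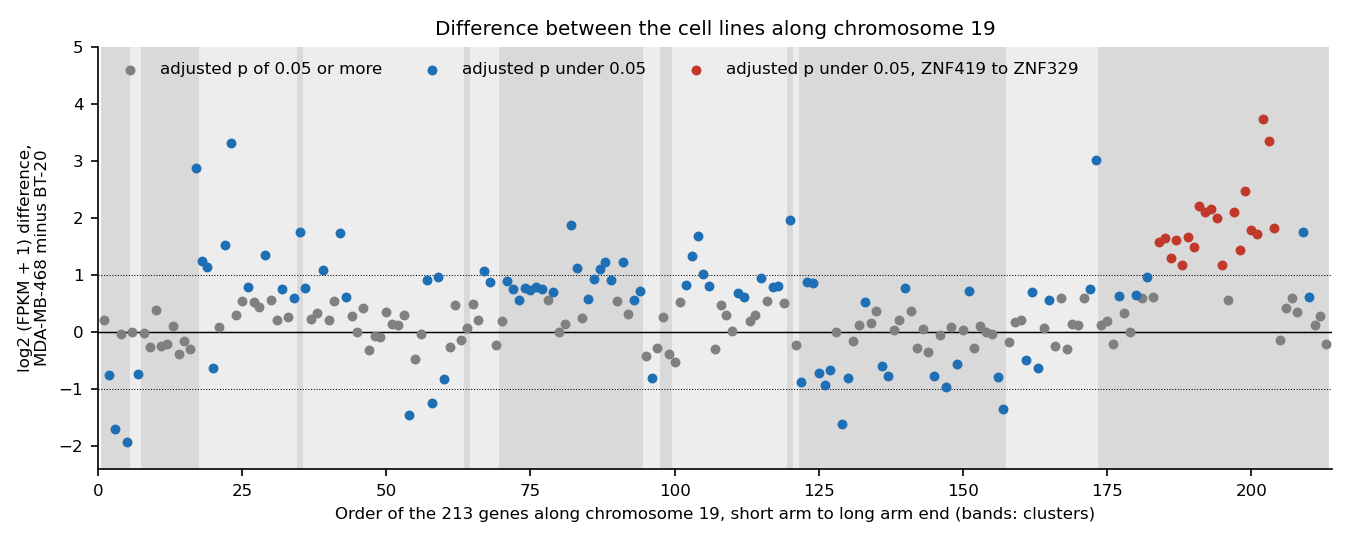
Log2(FPKM + 1) difference, MDA-MB-468 minus BT-20, of each of the 213 members (points) in their order along chromosome 19; bands mark clusters and dotted lines 2-fold. Of the 21 members from ZNF419 to ZNF329, 20 (red) lie above the upper dotted line. In the cluster ZNF565 to ZNF573 24 of 25 members lie above 0, in ZNF175 to ZNF331 16 of 36 and in ZNF554 to ZNF77 1 of 5.

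**Figure D2:**
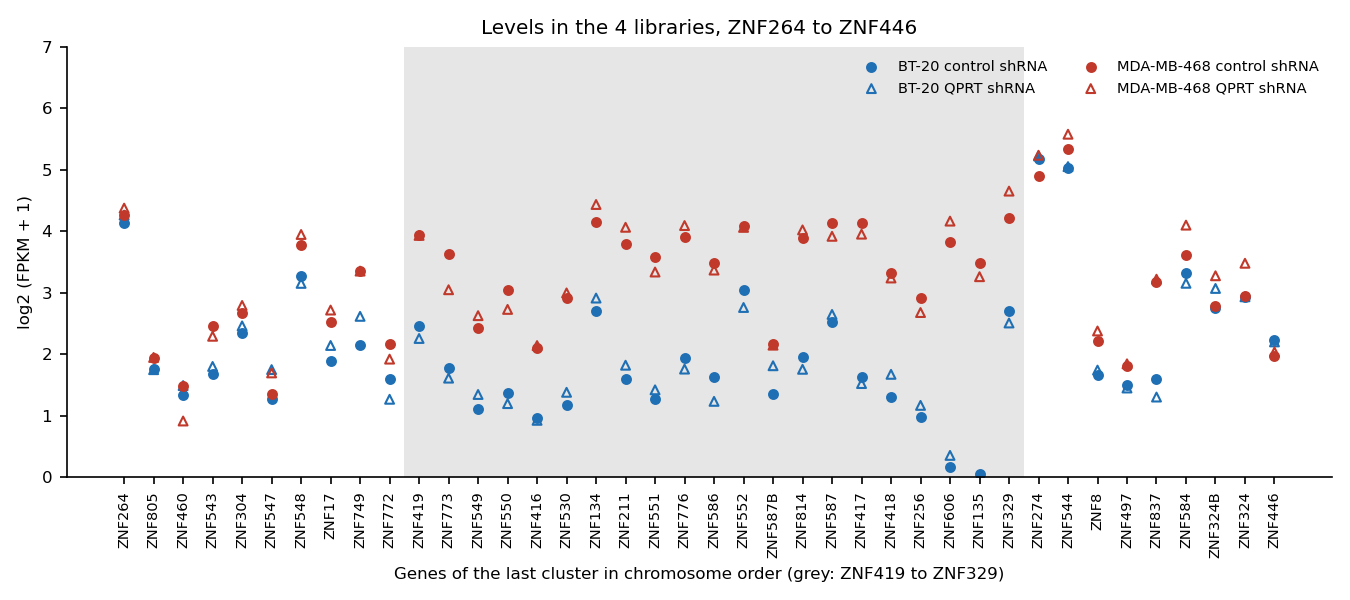
Levels as log2(FPKM + 1) of the 40 members of the last cluster in chromosome order, 1 point per library (blue BT-20, red MDA-MB-468, circles control shRNA, triangles QPRT shRNA). In the grey row red points stand above blue ones in every gene, and of the 9 genes from ZNF274 on 1, ZNF837, is 2-fold higher in MDA-MB-468.

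The promoters of this row are shown because most share a short element. RefSeq promoters (GRCh38.p14, 250 bases before to 50 after the start) matched 193 of the 213 members and 18 of the 21 in the row. CCGGAAGT, the core bound by ETS family factors, stood on either strand in 14 of these 18 (77.8%), in 7 of 19 (36.8%) of the same cluster outside the row, in 20 of 156 (12.8%) of the other clusters, in 8.88% of the promoters of genes tested and in 4.44% of all promoters. Promoters of the row are in part related sequences: those of ZNF587B and ZNF814 are nearly the same around the element. The share in the row therefore does not count separate occurrences. Inside the row the median line difference was 1.66 with the element and 1.81 without it. In the rest of the same cluster the medians were 0.12 with it and 0.61 without, and in the other clusters 0.51 with it and 0.21 without, so the sign of the contrast was not the same everywhere, and none of it was tested. A pair of other elements was searched on both strands. GCCATNTT was found in 33.3% of the row, 15% of matched members, 10.2% of the promoters of genes tested and 6.82% of all promoters. It too was thus more frequent in the row. The palindromic NRF1 element was found in 16.7%, 12.4%, 11.9% and 6.28% in the same order. Below are 2 promoters of the row with the element, ZNF606 (chr19:58002771-58003070, minus strand) and ZNF776 (chr19:57746565-57746864, plus strand), 1 of the row without it, ZNF135 (chr19:58058989-58059288, plus strand), and that of ZNF274 (chr19:58182811-58183110, plus strand), which did not pass the test of the line difference and holds 2 copies. Capitals mark CCGGAAGT or its reverse complement.
ZNF606: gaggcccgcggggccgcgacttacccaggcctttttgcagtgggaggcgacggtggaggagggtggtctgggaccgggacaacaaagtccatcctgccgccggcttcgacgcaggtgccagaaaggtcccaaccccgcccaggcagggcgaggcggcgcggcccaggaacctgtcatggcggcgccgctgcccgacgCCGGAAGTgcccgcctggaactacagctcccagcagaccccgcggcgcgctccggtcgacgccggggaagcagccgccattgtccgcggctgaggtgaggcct
ZNF776: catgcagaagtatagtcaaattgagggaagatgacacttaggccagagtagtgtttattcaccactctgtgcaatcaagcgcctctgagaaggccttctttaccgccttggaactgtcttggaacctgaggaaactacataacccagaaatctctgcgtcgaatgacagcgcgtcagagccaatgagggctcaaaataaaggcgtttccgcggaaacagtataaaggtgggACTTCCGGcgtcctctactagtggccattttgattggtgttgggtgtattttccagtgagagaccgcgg
ZNF135: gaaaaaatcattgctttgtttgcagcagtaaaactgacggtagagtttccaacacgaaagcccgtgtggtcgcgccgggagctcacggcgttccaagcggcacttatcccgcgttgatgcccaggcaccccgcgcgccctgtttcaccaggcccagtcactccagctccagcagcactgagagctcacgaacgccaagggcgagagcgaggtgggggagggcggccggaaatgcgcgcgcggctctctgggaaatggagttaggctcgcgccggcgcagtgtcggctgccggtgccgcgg
ZNF274: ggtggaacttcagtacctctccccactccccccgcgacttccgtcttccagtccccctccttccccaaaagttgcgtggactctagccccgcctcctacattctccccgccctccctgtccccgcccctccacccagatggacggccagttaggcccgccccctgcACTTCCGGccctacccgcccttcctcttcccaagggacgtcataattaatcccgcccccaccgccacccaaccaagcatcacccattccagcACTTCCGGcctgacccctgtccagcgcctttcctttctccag

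A set of 4 members was at or near 0 in BT-20 and clearly expressed in MDA-MB-468. These 4 passed the threshold on mean FPKM only through MDA-MB-468, so the direction of their difference was selected on. They are counted among the members called higher in MDA-MB-468. Of the 213 members, 7, these 4 among them, were under 1 FPKM in both BT-20 libraries and 1 in both MDA-MB-468 libraries. All 7 reached the threshold only through MDA-MB-468, so the direction of each was selected on. ZNF606 and ZNF135 also lie in the row from ZNF419 to ZNF329 and count among its genes at 2-fold. ZNF606 (ENSG00000166704, 57977053 to 58003349) was at 0.113 and 0.275 FPKM in the BT-20 libraries against 13.2 and 16.9 FPKM in those of MDA-MB-468, a 76.8-fold ratio of fragments over the libraries of each line (7 against 531 fragments, exact 95% interval 37.0 to 192). ZNF135 (ENSG00000176293, 58059239 to 58086310) had 1 fragment in BT-20 against 563 in MDA-MB-468, with levels of 0.0334, 0, 10.1 and 8.58 FPKM and a ratio between 102 and 22552. ZNF439 (ENSG00000171291, 11848726 to 11883750) lies far away on the short arm and had 1 fragment against 327, a ratio between 59.0 and 13115. ZNF835 (ENSG00000127903, 56661981 to 56671783) had 0 fragments in BT-20, and 5.45 and 9.15 FPKM in MDA-MB-468. Taking 3 fragments over both BT-20 libraries as the limit that 0 allows, ZNF835 was at least 103-fold higher in MDA-MB-468. These intervals and limits cover counting error only, since reads without molecular identifiers are not independent molecules. Another large difference was that of ZNF846, at 2.1, 2.75, 20.1 and 29.2 FPKM.

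Members called higher in BT-20 were fewer. ZNF556 (ENSG00000172000, 2867335 to 2883445) was at 2.38 and 2.13 FPKM in BT-20 but at 0 in both MDA-MB-468 libraries, at least 46.8-fold lower there by the same limit. ZNF556 passed the threshold on mean FPKM only through BT-20, so its direction was selected on. Its neighbour ZNF77 was at 21.6, 16.4, 4.01 and 4.40 FPKM, a log2 difference of -1.93 ± 0.26 (SE, n = 4 libraries, limma adjusted p = 4.36e-13). ZNF331, an imprinted gene, was at 35.3, 36.7, 14.2 and 12.8 FPKM. ZNF432 was at 23.8, 27.6, 7.89 and 7.46 FPKM. These genes were named for being among the largest differences towards BT-20. That their BT-20 libraries did not overlap those of MDA-MB-468 was therefore selected on. Of all genes tested, 34.7% had both MDA-MB-468 libraries below both BT-20 libraries. ZNF350, a partner of BRCA1 also called ZBRK1, had a log2 difference of -0.93, ZNF160 of -0.96, ZNF100 of -1.45 and ZNF724 of -1.24, all with a limma adjusted p under 0.05.

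Clusters were formed by chaining all protein-coding ZNF genes less than 500 kb apart, expressed or not, which gave 20 clusters, 10 of them with 4 or more members (202 members). The cluster at the end of the long arm, ZNF264 to ZNF446, had the highest median line difference of these 10, 1.18, with 25 of 40 members called higher in MDA-MB-468 and 0 called higher in BT-20. ZNF565 to ZNF573 (36182060 to 37817300) came next at 0.74, with 18 of 25 called higher in MDA-MB-468 and 0 in BT-20. There the levels were modest: ZNF382, a KRAB repressor, was at 3.69, 3.72, 6.69 and 7.01 FPKM, and ZNF568 at 2.82, 2.88, 12.6 and 13.9 FPKM. ZNF175 to ZNF331 (51571298 to 53580269) had a median near 0, -0.04, with 16 of 36 members above 0. There 13 members were called higher in BT-20 and 5 higher in MDA-MB-468. Of all genes tested, 30.7% were called higher in MDA-MB-468 and 24.4% in BT-20. ZNF554 to ZNF77 at the start of the short arm had the lowest median of the 10, -0.74, with 3 of 5 members called higher in BT-20. Among the remaining large clusters, ZNF653 to ZNF791 and ZNF575 to ZNF180 had medians of 0.56 and 0.58 and ZNF101 to ZNF254, the cluster that holds ZNF91, ZNF93 and ZNF43, had 0.22. As a description, the line difference of a member and of the next member along the chromosome had a Spearman rho of 0.51 over 212 pairs, 0.39 over 191 pairs without the row, and 0.33 over 743 pairs of other protein-coding genes of the chromosome. All pairs come from the same 4 libraries.

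QPRT shRNA left the members within 2-fold in both lines on the log2(FPKM + 1) scale. Of the 213 members, 0 differed 2-fold in BT-20, against 1.7% of all genes tested, and 0 differed so in MDA-MB-468, against 1.89%. This scale understates differences of low genes, and with a pseudocount of 0.1 there were 3 and 1. Over both lines limma called 0 members at an adjusted p under 0.05, where it called 0.628% of all genes tested, and 1 member, ZNF431, had an unadjusted p under 0.05 against 4.8% of all genes. Without the trend in the variance 0 were called and 5 had an unadjusted p under 0.05.

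In BT-20, 135 members (63.4%) were higher with QPRT shRNA by any amount, against 56.4% of all genes tested, and the median difference was 0.10 against 0.05. Of 217 ZNF genes on other chromosomes 72.8% were higher, and of 744 other protein-coding genes of chromosome 19 34.9%. After removal of the trends on GC content and transcript length, 46.0% of members and 48.2% of all genes tested were higher. At 1.5-fold, 9 members were higher and 1 was lower, where 5.7% and 3.27% of all genes tested were. The genes named next had the largest differences among the 169 members with whole fragment numbers in all 4 libraries and at least 50 fragments over both. Larger than some of them, but without whole numbers, were ZNF345 (3.79 and 6.75 FPKM) and ZNF358 (38.1 and 27.6 FPKM). ZNF675, an inhibitor of TRAF6 signalling, was at 14.7 FPKM with control and 28.1 FPKM with QPRT shRNA, from 202 and 398 fragments. The log2 ratio of fragments was 0.94 (exact 95% interval 0.69 to 1.19). ZNF91 was at 8.37 and 13.8 FPKM and ZNF431 at 4.97 and 8.97 FPKM. ZNF573 and ZNF565 rested on 53 and 84 fragments in all, with intervals of 0.17 to 1.97 and 0.28 to 1.67. Lower with QPRT shRNA were ZNF582 (4.39 and 2.57 FPKM), ZNF823 (13.5 and 9.99 FPKM), ZNF77 (21.6 and 16.4 FPKM), ZNF428 (38.0 and 28.6 FPKM) and ZNF586, whose interval of -1.52 to 0.24 included 0. Of 184 members with recovered fragments, the interval lay above 0 for 41 (22.3%) and below 0 for 12 (6.52%), against 25.9% and 16.8% of all genes tested that had one.

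In MDA-MB-468, 141 members (66.2%) were higher with QPRT shRNA, against 51.5% of all genes tested, with a median of 0.11 against 0.01. Of 744 other protein-coding genes of chromosome 19 74.2% were higher (median 0.14), and of 217 ZNF genes on other chromosomes 62.2% (median 0.08). After removal of the trends on GC content and transcript length, 70.0% of members and 49.4% of all genes tested were higher. At 1.5-fold, 13 were higher and 1 was lower, ZNF724 (2.06 and 0.774 FPKM, from 31 and 11 fragments), where 5.46% and 3.71% of all genes tested were. ZNF579 was at 25.6 FPKM with control and 42.7 FPKM with QPRT shRNA, a log2 ratio of fragments of 0.74 (exact 95% interval 0.57 to 0.91). ZNF420, a KRAB protein that binds p53, was at 9.19 and 15.6 FPKM. ZNF628 was at 9.83 and 16.4 FPKM, ZNF296 at 6.17 and 10.4 FPKM and ZNF433 at 5.72 and 9.71 FPKM, each with an interval above 0. Lower were ZNF773 (11.4 and 7.27 FPKM), ZNF460 (1.80 and 0.880 FPKM), ZNF507 (7.60 and 5.52 FPKM), ZNF85 (7.17 and 5.04 FPKM) and ZNF700 (7.52 and 5.62 FPKM), each with an interval below 0. ZNF93 (12.8 and 8.60 FPKM) and ZNF254 (4.11 and 2.56 FPKM), without whole fragment numbers, were lower by more than some of these. Of 181 members with recovered fragments, the interval lay above 0 for 48 (26.5%) and below 0 for 17 (9.39%), against 23% and 20.7% of all genes tested that had one.

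**Figure D3:**
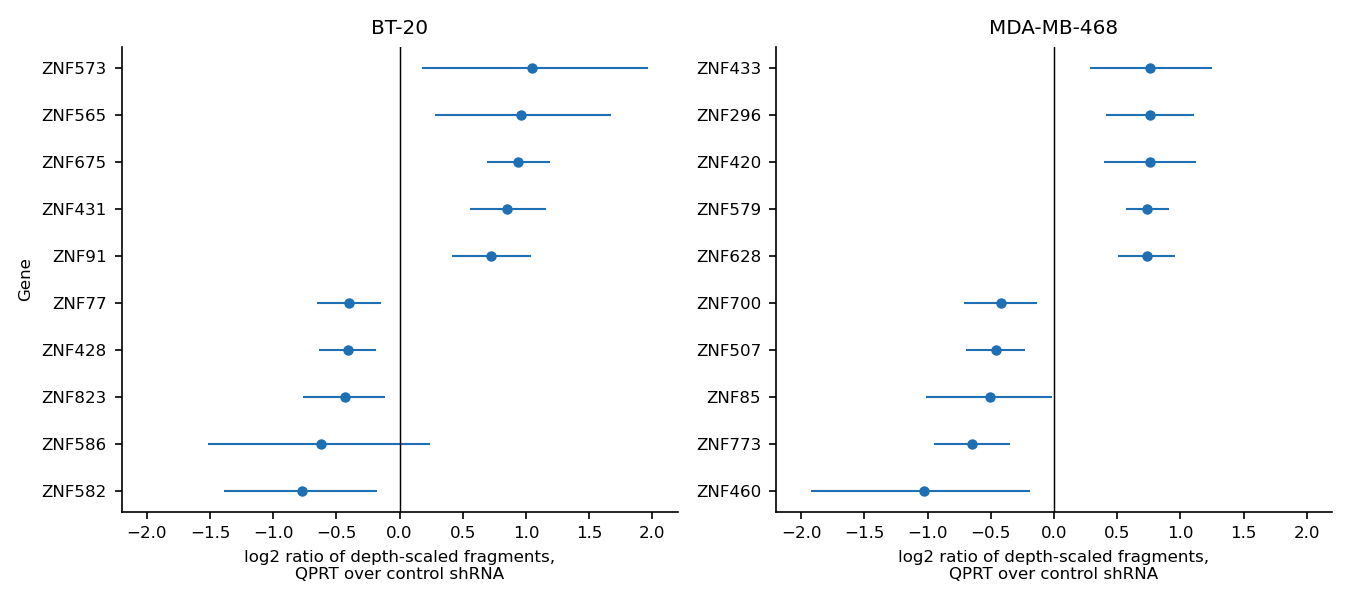
Log2 ratio of depth-scaled fragments, QPRT over control shRNA, for the 5 largest positive and 5 largest negative differences in each line among members with whole fragment numbers in all libraries and at least 50 fragments over the pair; points are single comparisons of 2 libraries and bars exact 95% counting intervals. In BT-20 the bar of ZNF586 crosses 0, and in MDA-MB-468 no bar does.

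Of the 166 members with whole fragment numbers and 50 fragments in each line, 0 differed 1.5-fold in one direction in both, where 0.399% of all such genes tested did. ZNF675 was at 12.3 and 10.1 FPKM in the MDA-MB-468 libraries with control and QPRT shRNA, and ZNF91 at 24.3 and 20.3 FPKM. Both values were lower where BT-20 was higher, but the counting interval of ZNF675, -0.62 to 0.05, included 0. That of ZNF91 was -0.47 to -0.04. ZNF579 was at 32.0 and 26.7 FPKM in BT-20. In all, 87 members (40.8%) were higher with QPRT shRNA in both lines and 23 (10.8%) lower in both, against 26.2% and 17.7% of all genes tested. Another 48 (22.5%) were higher in BT-20 and lower in MDA-MB-468, and 53 (24.9%) were the reverse, against 29.8% and 24.8%.

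The direction moved in part with base composition. The 28 members with a transcript GC content of 55% or more, 22 of them without a KRAB box, had a median difference of -0.15 in BT-20, with 8 of 28 higher. In MDA-MB-468 their median was 0.40, with 26 of 28 higher. For all genes tested of that GC content the medians were -0.05 and 0.12. The 185 members of lower GC content had medians of 0.12 and 0.08. ZNF787 was at 67.0 FPKM in the control and 58.8 FPKM in the QPRT shRNA library of BT-20, against 76.0 and 115 FPKM for MDA-MB-468. ZNF580, whose locus overlaps that of ZNF581, was at 64.1 and 51.4 FPKM in the BT-20 libraries and at 29.1 and 46.6 FPKM in those of MDA-MB-468. Both were lower with QPRT shRNA in BT-20 and higher in MDA-MB-468. Across the 213 members, as a description over the same 4 libraries, GC content had a Spearman rho of -0.36 with the difference in BT-20 and of 0.30 with that in MDA-MB-468. After removal of the trends on GC content and length over all genes, the members' median was -0.02 for BT-20 against 0.14 for MDA-MB-468, and the part of base composition in the remaining difference was not tested.

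**Figure D4:**
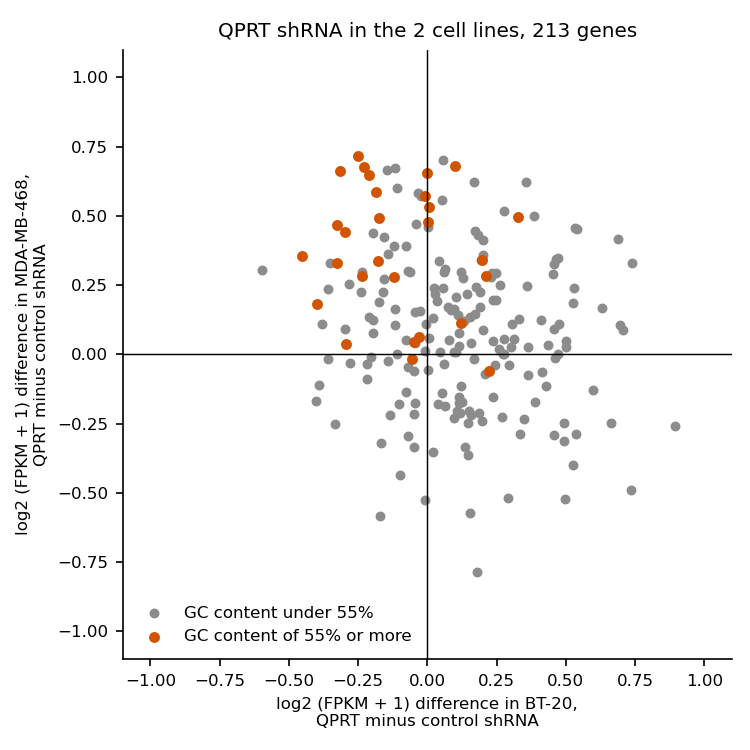
Log2(FPKM + 1) difference, QPRT minus control shRNA, in BT-20 (horizontal) and MDA-MB-468 (vertical) for the 213 members, 1 point each. Members with a GC content of 55% or more (orange, n = 28) lie mostly in the upper left, with medians of -0.15 and 0.40.

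The same split appeared in some clusters but not in all. In ZNF628 to ZNF835 (55476332 to 56671783), with a median GC content of 61.9%, 15 of 16 members were higher in MDA-MB-468 with QPRT shRNA (median 0.47) and 6 of 16 in BT-20 (median -0.02). In ZNF101 to ZNF254, with a median GC content of 42.4%, 24 of 28 were higher in BT-20 (median 0.19) but 12 of 28 in MDA-MB-468 (median -0.14). In the row from ZNF419 to ZNF329, 10 of 21 were higher in BT-20, as were 9 of 21 in MDA-MB-468, with medians of -0.05 and -0.01.

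**Figure D5:**
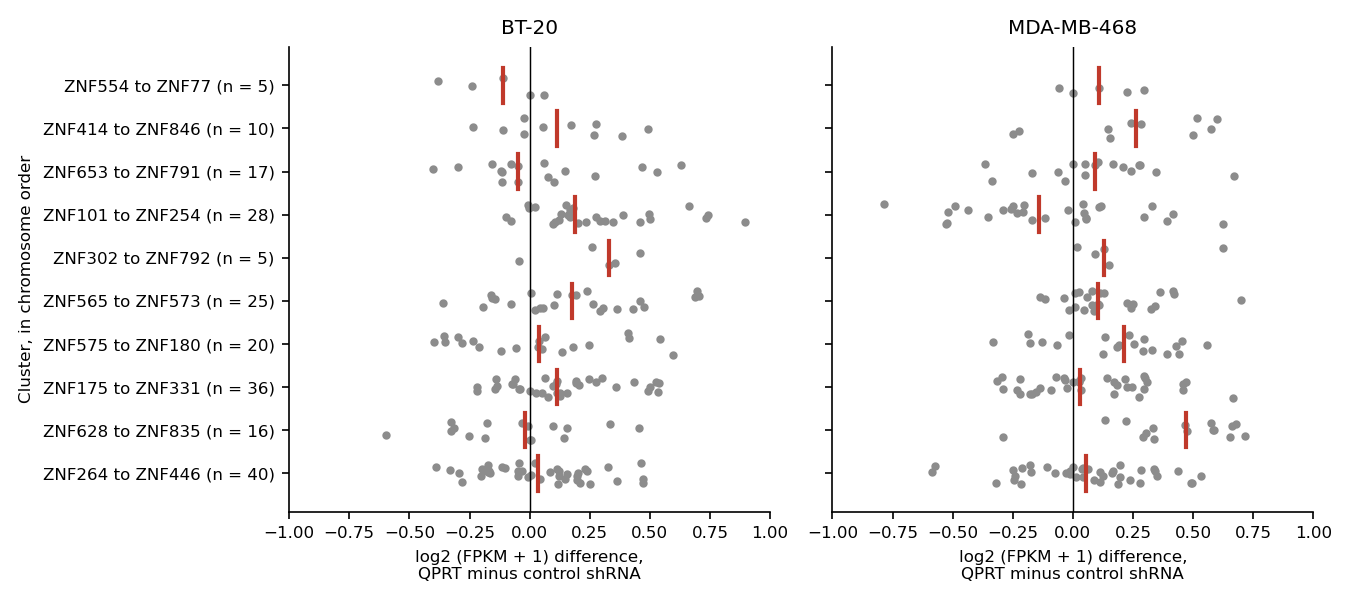
Log2(FPKM + 1) difference, QPRT minus control shRNA, of the members of the 10 clusters with 4 or more members, in BT-20 (left) and MDA-MB-468 (right); grey points are genes and red bars medians. ZNF101 to ZNF254 lies to the right in BT-20 and to the left in MDA-MB-468, and ZNF628 to ZNF835 lies to the right in MDA-MB-468.

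Of 20 members with a described role, 9 were called higher in MDA-MB-468 and 3 in BT-20, against 30.7% and 24.4% of all genes tested. With QPRT shRNA 14 were higher in BT-20, as were 14 in MDA-MB-468, against 56.4% and 51.5% of all genes tested and 63.4% and 66.2% of members. ZNF93, which binds LINE-1 elements, was at 9.0, 8.94, 12.8 and 8.60 FPKM. ZNF224, a KRAB repressor, was at 7.0, 7.21, 6.66 and 7.75 FPKM and differed least of the 20 between the lines. ZNF304 was at 4.05, 4.50, 5.40 and 5.93 FPKM, ZNF649 at 3.63, 5.67, 8.45 and 9.73 FPKM, ZNF43 at 7.85, 9.98, 6.01 and 6.28 FPKM, ZNF471 at 2.76, 3.74, 4.08 and 3.16 FPKM and ZNF581 at 23.6, 23.5, 20.1 and 30.4 FPKM. Of these, ZNF649 passed the test of the line difference.

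The corepressor genes that KRAB proteins work through were expressed in both lines. All 24 listed genes had a mean of at least 1 FPKM, and 8 were called higher in MDA-MB-468 and 3 in BT-20 (30.7% and 24.4% of all genes tested were). For QPRT shRNA limma called 0 of the 24, against 0.628% of all genes tested. An unadjusted p under 0.05 was found for 0, against 4.8% of all genes tested. TRIM28, the shared KRAB partner, itself lies near the end of chromosome 19, beyond the row, and was at 212, 202, 694 and 744 FPKM, a log2 difference of 1.79 ± 0.19 (SE, n = 4 libraries, limma adjusted p = 4.09e-20). SETDB1, the methyltransferase, was at 20.5, 23.3, 28.2 and 23.3 FPKM and did not pass the test. DNMT1, the maintenance DNA methyltransferase, was at 93.4, 106, 746 and 662 FPKM. CHD3 and EHMT1 were higher in BT-20, with log2 differences of -1.78 and -1.67. None of the 24 differed 2-fold with QPRT shRNA in either line.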

How the data were processed

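The authors prepared Illumina TruSeq libraries from total RNA and sequenced them on a NovaSeq system. The submitters' processing notes name FastQC, MultiQC, CASAVA, TopHat2 2.0.12 and HTSeq 0.6.1. The genome build and annotation are not given in the sources used here. The authors deposited FPKM values for 50653 Ensembl genes, and 0 columns were left unmatched. For 27 repeats of a symbol the row with the higher mean was kept.

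Coordinates, transcript lengths and GC content came from GENCODE 29 (GRCh38). Fingers and KRAB A boxes (at least 15 of 41 identities to a consensus) were counted in translated GENCODE coding sequences, in place of the RefSeq proteins first planned. FPKM times mean transcript length, divided by the value of 1 fragment, was whole within 0.02 (0.1 above 50 fragments) for 181 members in all libraries, and these give the fragment numbers. Clopper-Pearson 95% intervals cover counting error only. The linear models of limma 3.58.1 (R 4.3.3) took log2(FPKM + 1) of 14321 genes with cell line and shRNA as terms, eBayes with trend and Benjamini-Hochberg adjustment, two-sided. The count test named in the study was not run because the values are FPKM. The samples of a line are not stated to be separate cultures. The fit gave no weight to the spread of a single gene, so its SE and p-value rest on the spread of genes of its level in these libraries only. The limma step and the fragment step were tested on simulated data.

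Members, gene lists and tests were chosen with earlier results of these data known. Named genes were the 10 highest levels, the 8 largest line differences in each direction, the 5 largest shRNA differences in each direction and line among members with whole fragment numbers in all libraries and at least 50 over the pair, those changed 1.5-fold in one direction in both lines, 20 members with a described role, and 3 genes on each side of the threshold; others were named after their values were seen. The row from ZNF419 to ZNF329 and the promoter elements were also examined after the values were known. Python 3.11.15, pandas 2.3.3, scipy 1.17.1, statsmodels 0.14.6 and matplotlib 3.10.9 were used.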

Additional observations from a re-analysis of the deposited data

Results flagged for a closer look

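The 28 members with a GC content of 55% or more had median log2 differences of opposite sign with QPRT shRNA, -0.15 for BT-20 against 0.40 for MDA-MB-468. This contrast between lines was not tested, since each line has 1 library per shRNA, and 8 of 28 were higher in BT-20 while 26 of 28 were in MDA-MB-468. Of all genes tested with that GC content 42.4% and 66.0% were higher. After removal of the GC and length trends the medians of the 28 members were -0.037 and 0.28.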

How the results depend on the processing

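Calls between the lines depended on the filter: without a filter on low values over the table, 0 members were called higher in MDA-MB-468 and 0 in BT-20, against 81 and 24, and the 16 named genes kept their direction with adjusted p of 0.138 to 0.432. Under the other settings both counts stayed within 1.5 times. The median difference with QPRT shRNA in BT-20 was 0.15 after scaling to TPM and -0.018 after removal of the GC and length trend, against 0.10. Among members with a mean of at least 5 FPKM, of which there were 136, 88 were higher with QPRT shRNA in BT-20 against 89 in MDA-MB-468, fewer because fewer genes were left. Differences of 2-fold numbered 3 for BT-20 against 1 for MDA-MB-468 with a pseudocount of 0.1, and 10 and 14 members differed at 1.5-fold. With clusters joined at 1000 kb the highest cluster median was 0.74. With no exception allowed, a setting chosen after seeing the data, the row of 2-fold differences held 12 members. Scaling to the upper quartile of the genes tested, also chosen after seeing the data, changed no count by more than 1.5 times. In the row from ZNF419 to ZNF329, 20 members were at 2-fold under every scaling tried. The labels give no replicate numbers. The fit over both lines pairs the control and QPRT shRNA libraries by cell line, and without that block it also called 0 members. Members with few fragments have wide counting intervals, and the fit assumes that single genes vary as genes of their level do.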
